A study of Mus musculus with 137 samples.

Results

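The comparison described here set 5 crypt libraries of mice given 180 ppm hexavalent chromium (Cr(VI)) against 5 crypt libraries of mice given 60 ppm, both at day 91, and covered every probe that passed a count filter. The 10 libraries were chosen by their labels alone, out of 137 libraries from 71 mice in the whole study. All mice were female wildtype B6C3F1 (a hybrid strain), and Cr(VI) was supplied as sodium dichromate dihydrate in the drinking water with free access. Both groups compared here were exposed for 90 days, so neither is an untreated control, and the untreated crypts of the same day (0 ppm, 5 libraries) are given beside them where a level is described. Each of the 10 libraries came from a different mouse. Unless another fit is named, p values of genes below rest on the spread within groups over all 137 libraries. That spread covers every dose, both days, and crypt and villus, and not these 10 mice alone. Crypt and villus libraries of the same mouse were treated there as independent. From sections of formalin-fixed, paraffin-embedded duodenum the villus region was removed by microdissection, and the crypt tissue left on the slide was scraped off. A library therefore also holds whatever other cells lay in that remaining tissue.

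Intestinal crypts hold the stem cells and the dividing cells that renew the epithelium, with Paneth cells at their base, and their daughters mature into absorptive enterocytes and goblet cells as they move onto the villus. Cr(VI) that is not reduced in the stomach can enter cells, where its reduction forms reactive intermediates and Cr(III) bound to proteins and DNA. Cells meet oxidants with the NRF2 programme of glutathione and thioredoxin enzymes, and meet damaged proteins with the heat shock programme of chaperones under HSF1.

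RNA was measured by TempO-Seq, in which pairs of detector oligonucleotides that lie side by side on a transcript are ligated and sequenced, and each pair (a probe) gives a count of reads. Of 30146 probes, 26365 passed the filter, and 18998 genes were represented by a tested probe (the probe with the highest total count of its gene). Levels are given as CPM, that is counts scaled to the same total in every library, after trimmed mean of M-values (TMM) scaling. A gene was called when the Benjamini-Hochberg adjusted p of edgeR's quasi-likelihood test was under 0.1, and differences are log2 values of 180 minus 60 ppm.

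Total counts ran from 4053967 to 7199801 at 60 ppm and from 4457691 to 5667584 at 180 ppm, a difference in means that did not pass an exact permutation test (two-sided p = 0.317). Probes with at least 1 count numbered 21669 to 23112 at 60 ppm and 17109 to 21666 at 180 ppm, with no overlap (two-sided exact permutation p = 0.00794, the smallest that 5 against 5 libraries can give). With every library thinned to 1463938 counts the means were 19175 and 18048 probes, with the same p. Replicates 3 and 4 at 180 ppm stood apart, with 18629 and 17109 probes detected. Over 7600 probes, replicates 1, 2, 4 and 5 at 180 ppm correlated slightly more with the 60 ppm libraries than with their own group. Their mean r was 0.945, 0.932, 0.891 and 0.937 with 60 ppm, against 0.930, 0.931, 0.879 and 0.934. Replicate 3 (0.868 against 0.901) and the libraries at 60 ppm were closer to their own group. The summed level of 20 enterocyte markers was 44150 to 84430 CPM at 60 ppm and 18147 to 45020 CPM at 180 ppm. A large part of this sum was 1 marker, Fabp2, with 22479 to 49415 CPM at 60 ppm and 6161 to 23153 CPM at 180 ppm. Pancreatic acinar markers ran from 2223 to 29204 CPM at 60 ppm and from 2694 to 35992 CPM at 180 ppm. The acinar list includes Zg16, which is also on the goblet cell list. Zg16 had 1369 CPM in the library with the lowest acinar sum at 60 ppm and 1101 CPM in that at 180 ppm. Paneth cell markers, which belong to the crypt, summed to 8271 to 17102 CPM at 60 ppm and to 7978 to 18062 CPM at 180 ppm.

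**Figure D1:**
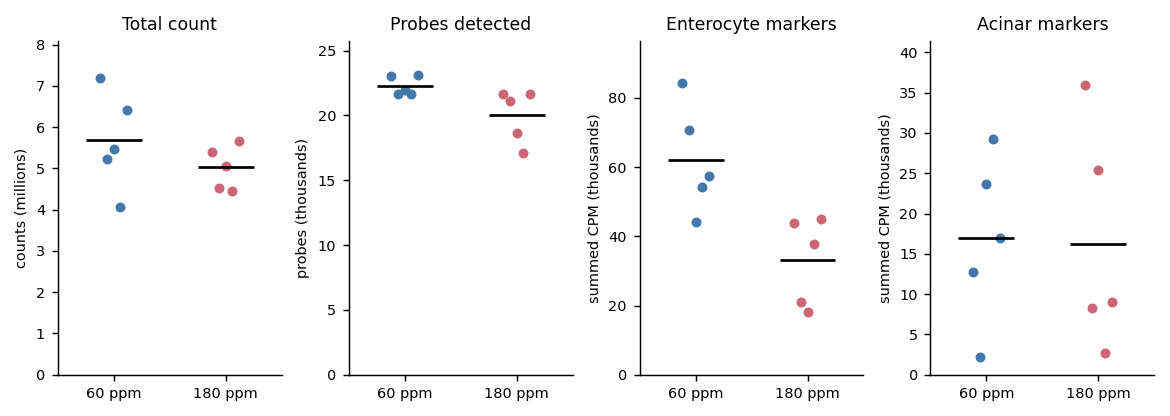
Total count, probes with at least 1 count, and summed CPM of the enterocyte and the pancreatic acinar markers in the 5 crypt libraries at 60 ppm (blue) and the 5 at 180 ppm (red) at day 91, with black lines for the means. Probes detected did not overlap between the groups, and enterocyte marker sums overlapped only between the highest at 180 ppm (45020 CPM) and the lowest at 60 ppm (44150 CPM).

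Most genes that separated the doses were lower at 180 ppm. Of all 26365 probes, 187 (0.709%) were called, for 179 genes. By the probe that stood for each gene, 8 genes (0.0421%) were higher at 180 ppm and 151 (0.795%) were lower. At an unadjusted p under 0.05, 362 of the 18998 genes were higher and 1407 were lower. The 8 were chaperones and RNA-binding proteins in the main, and the 151 included glutathione and thioredoxin enzymes, brush border proteins and enzymes of mitochondrial metabolism. The libraries of the groups did not overlap for 1300 genes (6.84%), and these included 6 of the 8 called higher and 139 of the 151 called lower. Called differences ran from 0.71 to 2.74 among the higher genes (median 1.06) and from 0.51 to 8.06 in size among the lower genes (median −0.93).

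The number of calls moved with the scaling, the libraries and the spread that was used. The TMM factors were lower in every library at 60 ppm than in any at 180 ppm. The highest at 60 ppm was 0.872 and the lowest at 180 ppm was 0.895. In these 10 libraries the TMM factor and the dose can therefore not be separated, and the part of the scaling in the lower calls was not tested beyond the size factors. The median difference of all probes was −0.14 under TMM and 0.000205 under DESeq2 size factors, which called 38 genes, 13 of them higher, so that the share of higher calls went from 6.70% to 34.2%. All 8 higher genes and 21 of the 151 lower genes kept their call under size factors, and all 159 kept their sign. Leaving out any 1 of the 10 libraries lowered the count of 179 genes. It was 82 without replicate 1 at 180 ppm, 8 without replicate 2 at 60 ppm, 5 without replicate 1 at 60 ppm (Hspa1b, Trim31, Mep1b, Ddhd2 and Lpgat1), and 1 (Ddhd2, a phospholipase) without replicate 3 at 180 ppm. Without replicates 3 and 4 at 180 ppm, an alternative chosen after the data were seen, edgeR called none, with 803 probes at an unadjusted p under 0.05.

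A fit of the 35 crypt libraries of day 91 alone, in place of all 137, called 1917 genes, 582 of them higher and 1358 lower, and 177 of these were among the 179. It called 589 genes without replicate 3 at 180 ppm and 140 without replicates 3 and 4. With the summed level of the enterocyte markers as a covariate, 1 gene was called in the fit of all libraries (Fbxl12, a subunit of ubiquitin ligases) and 1 in the fit of the 35 (Serinc3). Ddhd2, Lpgat1 and Fbxl12 were named after these counts were seen. These markers include 4 of the called genes, among them Fabp2, the most abundant marker. They differed between the groups, so the covariate and the dose overlap. In these bulk samples, fewer cells of a type and less RNA per cell cannot be told apart.

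**Figure D2:**
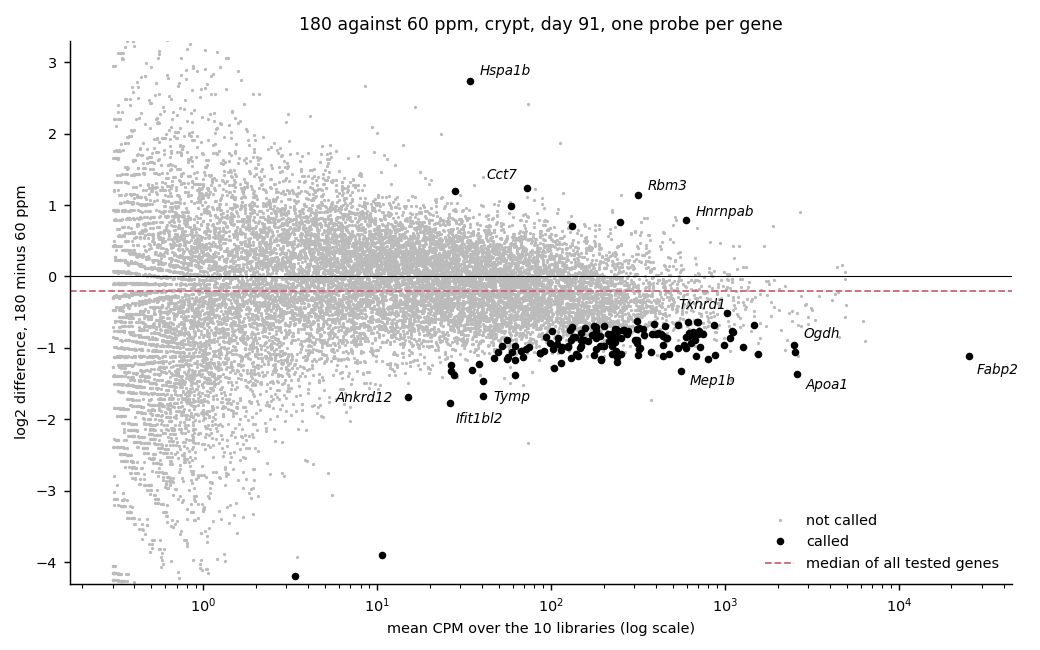
Log2 difference between 180 and 60 ppm in crypts at day 91 against the mean CPM over the 10 libraries (log scale), for 1 probe per gene with a mean over 0.3 CPM. Black points are called genes, grey points all others, and the dashed line is the median of all tested genes (−0.20). Of the called genes, 124 lay at 100 CPM or more and 33 between 10 and 100 CPM, most of them below 0. Ighv15-2 lies below the axis.

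The gene with the smallest adjusted p among the 8 higher at 180 ppm was a chaperone. Of 12 heat shock genes tested, 2 were called higher (Hspa1b and Dnaja1) and none lower, beside 0.0421% called higher over all genes. Of the 12, 7 lay above 0 and 5 below, with a median difference of 0.45 beside −0.20 over all tested genes. Hspa1b, the stress-inducible cytosolic HSP70, had 5.05, 12, 11.8, 12.2 and 4.76 CPM at 60 ppm and 54.5, 15.8, 176, 7.19 and 42.8 CPM at 180 ppm. Replicates 1, 3 and 5 at 180 ppm stood well above all libraries at 60 ppm, while replicate 4 lay among them. The difference was 2.74 ± 0.54 (SE), or 6.69-fold (adjusted p = 0.00653). It was 1.80 without replicate 3 at 180 ppm (adjusted p = 0.631), and in edgeR's other form of the fit, which is its installed default, the adjusted p was 0.406.

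Hspa1a, the near-identical neighbour of Hspa1b, had 0.952 to 4.63 CPM at 60 ppm and 0 to 23.9 CPM at 180 ppm and was not called (adjusted p = 0.448). Reads of these copies may be split by the counting, so the level of each is uncertain. In untreated crypts Hspa1b had 10.8 ± 10.2 CPM (SD, n = 5), close to the 9.15 ± 3.88 CPM at 60 ppm, against 59.2 ± 68.0 CPM at 180 ppm.

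Dnaja1, an HSP40 co-chaperone that delivers clients to HSP70, had 190.1, 230.3, 162, 169 and 169.7 CPM at 60 ppm and 269, 272, 352, 243 and 425 CPM at 180 ppm. Every library at 180 ppm was above every one at 60 ppm, and the difference was 0.76 ± 0.22 (adjusted p = 0.0921). Hsph1, an HSP110 that recharges HSP70, and Hsp90ab1, the constitutive cytosolic HSP90, were not called by the probe that stood for them (0.62 and 0.34, adjusted p = 0.605 and 0.783). Another probe of each, chosen after its values were seen, was called. For Hsph1 that probe had 9.71 to 17.7 CPM at 60 ppm and 29.7 to 82.5 CPM at 180 ppm (adjusted p = 0.0578). For Hsp90ab1 it had 70.1 to 92.0 CPM and 158 to 239 CPM (adjusted p = 0.0565). The remaining probes of each were not called, with differences of 1.03 and −1.13 for Hsph1, the second of them under 3 CPM, and of 0.47 and 0.46 for Hsp90ab1.

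The windows of 250 bases before the starts of Hspa1b, Dnaja1 and Hsph1 are shown because the heat shock programme acts through a short promoter motif. They are RefSeq sequences on GRCm38.p6, with capitals marking each match to GAANNTTC or TTCNNGAA, the core of the heat shock element, searched on both strands.
Hspa1b, chr17:34959239-34959488, minus strand, match 104 bases before the start: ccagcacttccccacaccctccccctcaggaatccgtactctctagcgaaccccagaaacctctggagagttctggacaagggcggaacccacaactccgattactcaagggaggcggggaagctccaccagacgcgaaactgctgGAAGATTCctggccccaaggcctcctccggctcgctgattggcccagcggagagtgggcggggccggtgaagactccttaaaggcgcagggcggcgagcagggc
Dnaja1, chr4:40722218-40722467, plus strand, the first of 3 listed starts, match 124 bases before the start: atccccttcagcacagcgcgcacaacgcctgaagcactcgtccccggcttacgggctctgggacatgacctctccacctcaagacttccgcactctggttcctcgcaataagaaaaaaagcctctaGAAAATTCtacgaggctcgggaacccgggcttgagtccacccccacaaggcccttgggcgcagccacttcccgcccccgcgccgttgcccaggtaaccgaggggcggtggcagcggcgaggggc
Hsph1, chr5:149636316-149636565, minus strand, the first of 2 listed starts, match 54 bases before the start: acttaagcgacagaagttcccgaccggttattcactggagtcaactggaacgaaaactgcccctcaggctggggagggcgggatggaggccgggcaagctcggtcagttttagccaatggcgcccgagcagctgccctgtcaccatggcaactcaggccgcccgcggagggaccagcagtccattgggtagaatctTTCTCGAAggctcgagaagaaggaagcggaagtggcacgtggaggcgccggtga
The windows of the other 2 starts of Dnaja1 held no match, and that of the other start of Hsph1 held 1. That of Hspa1a, not printed, held 1 match, also 104 bases before the start, and no window was available for Hsp90ab1. These letters occurred in a window of 2 of the 7 called higher genes that had one, beside 14.5% of all 27025 genes with a window and 13.2% of those tested. A match is a description of the letters and not a bound site.

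Cct7, a subunit of the chaperonin that folds actin and tubulin, had 50.1, 40.4, 44.4, 30.0 and 49.5 CPM at 60 ppm and 97.5, 106, 154, 60.5 and 87.7 CPM at 180 ppm. The groups did not overlap, and the difference was 1.23 ± 0.31, or 2.35-fold (adjusted p = 0.0567). Its window held none of these letters. Rbm3, an RNA-binding protein known for its induction by cold, had 190.3, 212, 186, 183 and 220.3 CPM against 429, 317, 591, 362 and 478 CPM. All 5 libraries at 180 ppm were above the highest at 60 ppm, and the difference was 1.13 ± 0.27, or 2.2-fold (adjusted p = 0.0396). Of the 8 higher genes, Rbm3 alone was also called in the installed default form of the fit (adjusted p = 0.0777).

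RNA processing was represented by Hnrnpab, which binds pre-mRNA, and Cpsf6, part of the factor that selects polyadenylation sites. Hnrnpab had 357 to 465 CPM at 60 ppm and 647 to 931 CPM at 180 ppm (0.80 ± 0.20, adjusted p = 0.0567), and Cpsf6 had 23.8 to 47.6 CPM and 58.5 to 98.4 CPM (0.98 ± 0.27, adjusted p = 0.0799). The others were Sptlc1, a subunit of the enzyme that starts sphingolipid synthesis, and Serinc3, a membrane protein of the serine incorporator family. Sptlc1 had 11 to 22.1 CPM at 60 ppm and 21.3 to 60.7 CPM at 180 ppm, which overlapped (1.19 ± 0.33, adjusted p = 0.0818). Serinc3 had 86.8 to 118 CPM and 129 to 191 CPM (0.71 ± 0.20, adjusted p = 0.0942). None of 33 splicing factors was called (median 0.14).

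**Figure D3:**
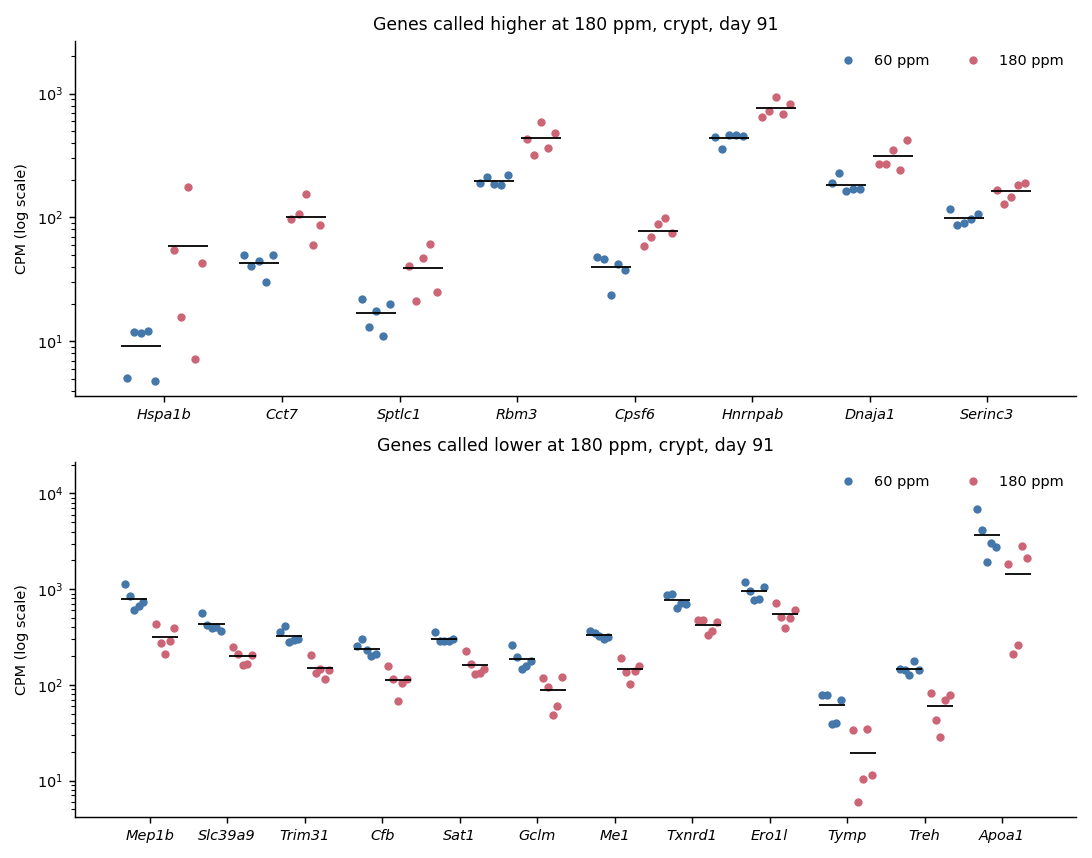
CPM (log scale) in each crypt library of day 91 at 60 ppm (blue) and 180 ppm (red) for the 8 genes called higher at 180 ppm and for 12 of those called lower, with black lines for the group means. The groups are separate for each gene shown except Hspa1b and Sptlc1 above and Apoa1 below.

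Among the called lower genes whose libraries did not overlap, by the probe that stood for each gene, the smallest adjusted p belonged to genes of the brush border, metal and polyamine handling, and innate defence. Over all probes, a further probe of Ddhd2 and of Lpgat1 ranked above them (adjusted p = 0.00246 for each). Mep1b, the beta subunit of the brush border protease meprin, had 1120, 843, 609, 673 and 727 CPM at 60 ppm and 435, 271, 210.2, 287 and 390.1 CPM at 180 ppm. The highest value at 180 ppm lay below the lowest at 60 ppm, and the difference was −1.32 ± 0.25, or 2.49-fold lower at 180 ppm (adjusted p = 0.00349). Slc39a9, a zinc transporter of the ZIP family, had 565, 422, 392, 401 and 363 CPM against 250.4, 210.4, 162, 167 and 206 CPM. These too were apart, with a difference of −1.11 ± 0.21 (adjusted p = 0.00494). Slc39a9 lies at chr12:80643883-80683342 in GENCODE M21 on GRCm38.

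Trim31, a ubiquitin ligase of the gut epithelium, had 278 to 413 CPM at 60 ppm and 116 to 208 CPM at 180 ppm (−1.13 ± 0.23, adjusted p = 0.0118). Cfb, complement factor B, had 198 to 302 CPM and 68.5 to 157 CPM (−1.09 ± 0.23, adjusted p = 0.0179). Sat1, the enzyme that acetylates spermidine and spermine for their breakdown, had 286 to 355 CPM and 132 to 224 CPM (−0.92 ± 0.20, adjusted p = 0.0179). In none of these did a library at 180 ppm reach the lowest at 60 ppm.

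Next by adjusted p, again without overlap, came the 9 genes Tmc5, Slc16a5, Cdhr5, Usf3, Dyrk2, Ogdh, Arfgap3, Pdcd6 and Trip4. They had differences from −0.93 to −1.22 and adjusted p from 0.0185 to 0.0231. Slc16a5 is a carrier of the monocarboxylate transporter family, Dyrk2 a protein kinase, and Arfgap3 a regulator of Golgi traffic. Ogdh, the first subunit of the 2-oxoglutarate dehydrogenase of the citric acid cycle, was the most abundant of them, with 2684 to 4218 CPM at 60 ppm and 1101 to 2039 CPM at 180 ppm. All 14 genes of this rule were also called in the installed default form of the fit, and all but Trip4 with size factors (adjusted p = 0.117).

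NRF2 targets were lower at 180 than at 60 ppm where they were called at all. Of 26 tested, 3 were called lower (Gclm, Me1 and Txnrd1) and none higher, beside 0.795% called lower over all genes. Genes with a mean of 100 CPM or more had a larger share, with 124 of 2088 called in either direction. At an unadjusted p under 0.05, 7 of the 26 were lower, beside 1407 of 18998 over all genes, and the median was −0.52 beside −0.20. None of the 3 was called with size factors, under which the median was −0.36. Gclm, the modifier subunit of the enzyme that limits glutathione synthesis, had 264, 195, 148, 156 and 176 CPM at 60 ppm and 119, 94.4, 48.3, 60.1 and 119.8 CPM at 180 ppm. The groups were apart, and the difference was −1.09 ± 0.28 (adjusted p = 0.0593).

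Me1, the cytosolic malic enzyme that makes NADPH, had 366, 350.3, 321, 305 and 316 CPM at 60 ppm and 189, 136, 102, 141 and 157 CPM at 180 ppm (−1.19 ± 0.31, adjusted p = 0.0593). Txnrd1, the cytosolic thioredoxin reductase, had 861, 893, 639, 722 and 702 CPM against 481, 477, 335, 369 and 453 CPM (−0.85 ± 0.23, adjusted p = 0.0746). Neither overlapped between the groups. The further probes of Txnrd1 went the other way without passing the test (0.26 from 113 to 135 CPM, and 0.15 from 11.4 to 12.7 CPM), and those of Gclm (−0.88 and −0.53) and Me1 (−0.53) had the sign of the called probe and were not called. In the installed default form of the fit the adjusted p of the 3 genes was 0.129 for Gclm and 0.134 for Me1 and for Txnrd1.

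The windows before the starts of Gclm and Txnrd1 are shown because NRF2 acts through the antioxidant response element. Capitals mark the match to its core, TGACNNNGC, or to the same letters on the other strand.
Gclm, chr3:122245307-122245556, plus strand, match 134 bases before the start: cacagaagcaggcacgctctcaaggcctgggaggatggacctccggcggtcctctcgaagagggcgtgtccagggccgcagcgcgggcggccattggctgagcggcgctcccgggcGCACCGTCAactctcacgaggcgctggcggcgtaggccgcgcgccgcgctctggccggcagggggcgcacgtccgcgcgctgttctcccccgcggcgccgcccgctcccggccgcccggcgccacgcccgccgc
Txnrd1, chr10:82858956-82859205, plus strand, the second of 3 listed starts, match 92 bases before the start: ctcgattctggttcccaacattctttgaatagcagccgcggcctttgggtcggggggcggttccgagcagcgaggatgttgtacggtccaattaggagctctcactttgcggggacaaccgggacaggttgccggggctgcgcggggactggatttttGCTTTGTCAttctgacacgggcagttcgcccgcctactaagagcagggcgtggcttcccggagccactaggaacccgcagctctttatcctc
Both matches read on the strand opposite to the gene. The windows of the other 2 starts of Txnrd1 and both windows of Me1 held no match. Of the 124 called lower genes with a window 12 held the letters, beside 11.5% of all 27025 genes with a window and 12.6% of those tested.

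Against untreated crypts these 3 targets were higher at 60 ppm and were not called at 180 ppm. In the fit of 60 against 0 ppm, 2129 genes (11.2%) were called higher and 854 (4.5%) lower, and in that of 180 against 0 ppm 825 (4.34%) and 518 (2.73%). These comparisons share libraries with the one above and with each other, so their values are only set side by side. Counted over all probes of a gene, size factors turned the split from 2306 higher and 1120 lower to 1461 and 2084 at 60 ppm, and from 890 and 600 to 674 and 810 at 180 ppm. Of the 26 NRF2 targets, 15 were called higher and 2 lower at 60 ppm, against 6 and 1 at 180 ppm.

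Gclm had 61.9 ± 26.8 CPM in untreated crypts, 119.8 ± 18.9 at 20 ppm, 188 ± 46.2 at 60 ppm and 88.3 ± 33.0 at 180 ppm (SD, n = 5). Its difference from untreated crypts was 1.61 at 60 ppm (adjusted p = 1.38e-05) and 0.52 at 180 ppm (adjusted p = 0.383). Ero1l, the oxidase that drives disulfide formation in the endoplasmic reticulum and a hypoxia target, had 220.1 ± 80.0, 595 ± 98.1, 953 ± 178 and 547 ± 124 CPM at the same doses. It was called higher than in untreated crypts at 60 ppm (2.12, adjusted p = 8.96e-12) and at 180 ppm (1.32, adjusted p = 1.56e-05), and lower at 180 than at 60 ppm (−0.80 ± 0.22, adjusted p = 0.0818). Slc39a9 had 180.0 ± 54.9 CPM in untreated crypts, 429 ± 78.9 at 60 ppm and 199 ± 36.1 at 180 ppm, and so lay near its untreated level at the highest dose.

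Other genes were lowest at 180 ppm among the means of all 7 doses. Tymp, the thymidine phosphorylase, had 165 ± 65.6 CPM in untreated crypts, 61.2 ± 20.0 at 60 ppm and 19.3 ± 13.8 at 180 ppm. It was lower than in untreated crypts at both doses (−1.42 and −3.10, adjusted p = 0.0028 and 8.26e-09), and 180 ppm was below 60 ppm without overlap (−1.67 ± 0.39, adjusted p = 0.0327). Treh, the brush border trehalase, had 260.1 ± 65.5, 147 ± 19.5 and 60.5 ± 23.4 CPM, and Apoa1, the main protein of HDL, 5694 ± 2027, 3725 ± 1904 and 1439 ± 1158 CPM.

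**Figure D4:**
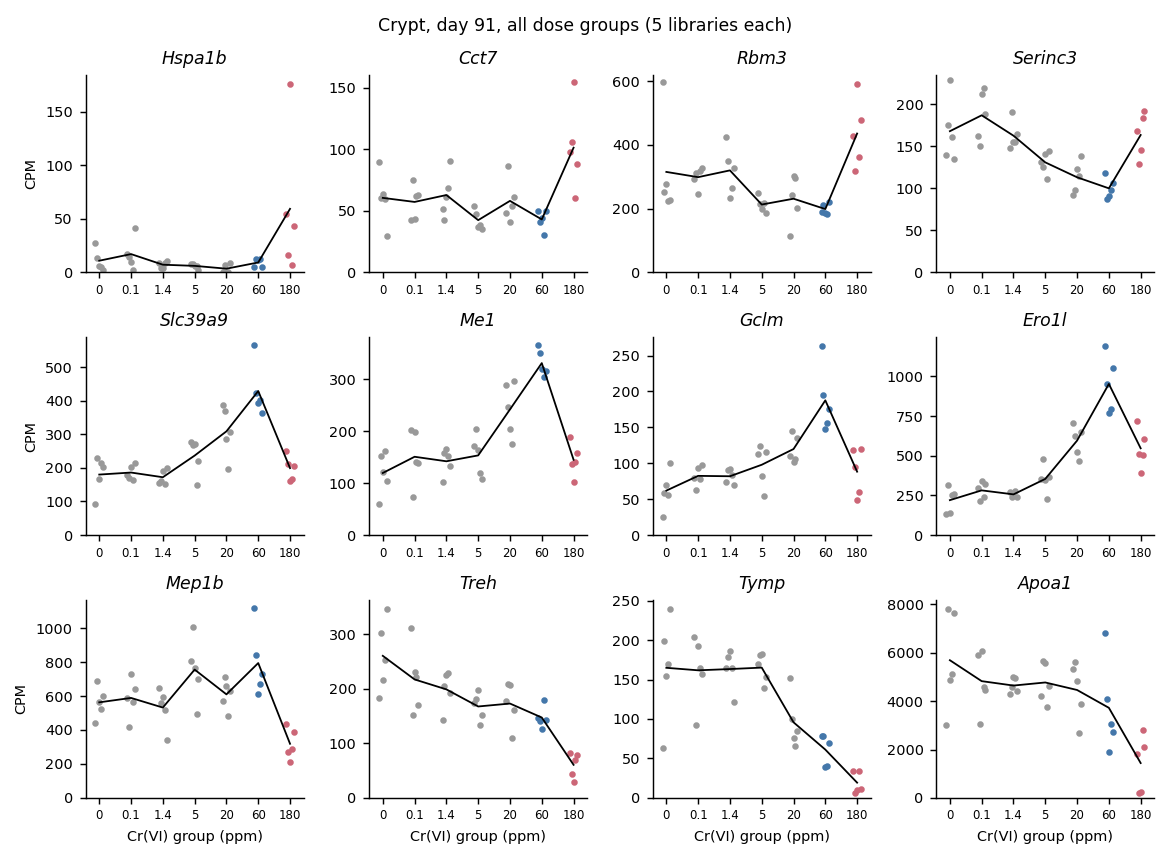
CPM in each crypt library of day 91 (5 per dose) of 12 called genes over the 7 doses of Cr(VI) in ppm, spaced evenly, with 60 ppm in blue, 180 ppm in red and a black line through the means. Slc39a9, Me1, Gclm and Ero1l have their highest mean at 60 ppm and a lower one at 180 ppm, Treh, Tymp and Apoa1 have their lowest mean at 180 ppm, and Hspa1b, Cct7 and Rbm3 their highest.

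Enterocyte genes were the marker list with the most calls. Of 20 tested, 4 were called lower (Apoa1, Fabp2, Treh and Cdhr5) and none higher, beside 0.795% called lower over all genes. Among the 2088 genes with a mean of at least 100 CPM, 124 were called in either direction. Of the 20 markers, 19 were below 0, beside 11553 of 18998 over all genes, and the median was −0.81 beside −0.20. With size factors Cdhr5 alone was called and the median was −0.65. Fabp2, the intestinal fatty acid-binding protein and the most abundant of the list, had 49415, 43350, 22479, 28144 and 29206 CPM at 60 ppm and 22197, 8683, 6161, 19616 and 23153 CPM at 180 ppm. The lowest library at 60 ppm lay within the range at 180 ppm, and the difference was −1.11 ± 0.31 (adjusted p = 0.0818).

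Apoa1 had 6829, 4108, 1916, 3038 and 2735 CPM at 60 ppm and 1813, 213, 259, 2817 and 2093 CPM at 180 ppm. These overlapped, and replicates 2 and 3 at 180 ppm were far below the rest (−1.37 ± 0.38, adjusted p = 0.0818). Treh had 126 to 179 CPM and 28.8 to 82.4 CPM (−1.28 ± 0.34, adjusted p = 0.0706). Cdhr5, a cadherin that links neighbouring microvilli, had 635 to 849.8 CPM and 217 to 454 CPM (−1.01 ± 0.22, adjusted p = 0.0185). In untreated crypts the summed level of these markers ran from 29339 to 56148 CPM. The part of the enterocyte level in the other calls was not tested beyond the covariate, under which the difference of Mep1b was −0.68 (adjusted p = 0.292), of Gclm −0.54 (adjusted p = 0.703) and of Slc39a9 −0.80 (adjusted p = 0.249).

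Of the other metabolic and stress lists, 6 held 1 gene each called lower at 180 ppm, beside 0.795% over all genes. Calls were concentrated in abundant genes, with 124 of 2088 called in either direction at a mean of 100 CPM or more. With size factors none of the 6 genes was called. Sdha, the flavoprotein of succinate dehydrogenase, was the 1 of 33 oxidative phosphorylation genes, with 1197 to 1642 CPM at 60 ppm and 599 to 996 CPM at 180 ppm (−0.78 ± 0.21, adjusted p = 0.0746, list median −0.07). The 3 further probes of Sdha lay above 0 without a call (0.16, 0.27 and 0.43). Eif4a2, an RNA helicase of translation initiation, was the 1 of 29 initiation factors, with 689 to 1013 CPM and 227 to 489.8 CPM (−1.01 ± 0.23, adjusted p = 0.0322, list median −0.02). Ei24, known as a p53-induced gene of the endoplasmic reticulum, was the 1 of 24 p53 targets, with 408 to 549 CPM and 226 to 367 CPM (−0.66 ± 0.18, adjusted p = 0.0796, list median −0.02).

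Ero1l was the 1 of 20 hypoxia targets (list median 0.04). Fabp2 was also the 1 of 24 genes of fatty acid oxidation (list median −0.39), and Apoa1 the 1 of 17 genes of lipid absorption (list median −0.18). Lists without a call included xenobiotic metabolism, where 10 of 30 genes were lower at an unadjusted p under 0.05, beside 1407 of 18998 over all genes, and the median was −0.47. Adh1, the class I alcohol dehydrogenase, had 2611 to 5116 CPM at 60 ppm and 778 to 2449 CPM at 180 ppm without passing the test (−1.12 ± 0.37, adjusted p = 0.201). Sult1b1, a sulfotransferase, had 1053 to 2379 CPM and 299.6 to 944 CPM (−1.05 ± 0.31, adjusted p = 0.12).

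Genes of proliferation, repair and stem cells gave no call in the fit of all 137 libraries. Of 28 mitotic genes, 26 replication genes, 26 genes of the Fanconi and homologous recombination pathways, and 23 stem cell and Wnt genes none passed the test, and the medians were 0.05, 0.16, −0.07 and −0.10. Top2a, the topoisomerase of dividing cells, had 206 to 257 CPM at 60 ppm and 184 to 363 CPM at 180 ppm (0.19 ± 0.39, adjusted p = 0.942). Olfm4, a crypt stem cell marker, had 293 to 462 CPM and 257 to 491 CPM (0.06 ± 0.48, adjusted p = 0.993). The 95% interval of the difference ran from −0.59 to 0.98 for Top2a and from −0.90 to 1.01 for Olfm4.

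Trp53, the p53 gene itself, had 150.3 to 164 CPM at 60 ppm and 127 to 168 CPM at 180 ppm (−0.17 ± 0.22, adjusted p = 0.892). Cdkn1a, the p21 cell cycle inhibitor, had 6.22 to 19.8 CPM and 11 to 28.1 CPM (0.90 ± 0.37, adjusted p = 0.424). No call was made either among 26 interferon genes (median −0.53), 20 genes of the unfolded protein response (median 0.27), 12 Paneth cell markers (median 0.24), 9 goblet cell markers (median −0.46) or 20 acinar markers (median −0.01).

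Several abundant genes of other lists also lay below 0 without passing the test. Fcgbp, a mucus protein of goblet cells, had 2404 to 4410.0 CPM at 60 ppm and 921 to 2379 CPM at 180 ppm, with no overlap (−0.89 ± 0.27, adjusted p = 0.146). Fth1, the heavy chain of the iron store ferritin, had 4261 to 8151 CPM and 1517 to 5204 CPM (−0.85 ± 0.31, adjusted p = 0.296). None of 14 metal handling genes was called (median −0.46).

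Irf1, a transcription factor of the interferon response, had 147 to 337 CPM at 60 ppm and 95.8 to 206 CPM at 180 ppm (−0.61 ± 0.23, adjusted p = 0.323), beside 465 ± 98.2 CPM in untreated crypts. Slc5a1, the sodium-glucose cotransporter of the brush border, had 533 to 1051 CPM and 393 to 777 CPM (−0.31 ± 0.26, adjusted p = 0.829), beside 1535 ± 264 CPM. Both were called lower than in untreated crypts at 60 ppm (adjusted p = 0.000399 and 0.00413) and at 180 ppm (adjusted p = 1.22e-07 and 0.000336). Hspa5, the chaperone of the endoplasmic reticulum, had 4121 to 6247 CPM and 2972 to 5260 CPM (−0.22 ± 0.18, adjusted p = 0.816), beside 2372 ± 605 CPM, and was called higher than in untreated crypts at both doses (1.01 and 0.79, adjusted p = 1.38e-05 and 0.00192).

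Cholesterol synthesis (18 genes, median 0.17) and smooth muscle markers (10 genes, median 0.58) gave no call, and 3 genes of each were higher at an unadjusted p under 0.05, beside 362 of 18998 over all genes. Ribosomal protein genes (40) had a median of −0.02 and proteasome subunits (31) of 0.04. Olfactory receptors, 746 genes with almost no reads in this tissue, had a median of −1.27 with 12 lower at an unadjusted p under 0.05, a smaller share than the 1407 of 18998 over all genes. Among all 6148 genes below 1 CPM, 51.7% of values were 0 at 60 ppm and 69.5% at 180 ppm, and the median difference was −0.72.

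Some called genes with large differences were low or variable. Ankrd12, an ankyrin repeat protein of the nucleus, had 15.4 to 29.9 CPM at 60 ppm and 1.06 to 13.9 CPM at 180 ppm (−1.68 ± 0.44, adjusted p = 0.0625). Ifit1bl2, of the interferon-induced IFIT family, had 23.8 to 88.2 CPM and 4.13 to 25.2 CPM (−1.77 ± 0.48, adjusted p = 0.0799). Of 179 immunoglobulin gene segments 2 were called lower, beside 151 of 18998 (0.795%) over all genes. Such segments resemble each other enough for reads to be shared. Ighv15-2 had 42.1 CPM in replicate 1 at 60 ppm and 0 in the other 9 libraries, and Igkv14-130 ran from 0 to 70.3 CPM at 60 ppm and from 0 to 4.31 CPM at 180 ppm. Without the 60 ppm replicate at its highest value neither was called.

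The villus libraries of the same 10 mice gave no edgeR call between 180 and 60 ppm (0%), with 1109 probes at an unadjusted p under 0.05, and DESeq2 called 19 genes. Of the 151 lower genes 148 were below 0 in the villus (median −0.45), as were 58.6% of the 7356 genes with a mean of at least 10 CPM in the crypt libraries (median −0.07), and all 8 higher genes were above 0 (median 0.49). With size factors 96.7% of the 151 were below 0. In the villus Mep1b differed by −0.86 ± 0.24 and Hspa1b by 1.99 ± 0.58, each with an adjusted p of 0.839. The change of the difference between compartments was called for no gene (0%) by edgeR, at an unadjusted p under 0.05 for 533 probes, and DESeq2 called 13 genes.

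At day 8, in other mice, 21 genes (0.111%) were called between 180 and 60 ppm in the crypt. Of the 151 genes lower at day 91, 110 (72.8%) were below 0 at day 8 (median −0.12), as were 56.4% of the 7356 genes (median −0.05). With size factors these were 52.3% and 46.4%. Of the 8 higher genes 1 was above 0 (median −0.22). Hspa1b differed by −0.63 at day 8 (adjusted p = 0.915), Mep1b by −0.49 (adjusted p = 0.743) and Gclm by −0.06 (adjusted p = 1). The change between days was called for 4 genes (0.0211%), and none of them was among those called at day 91.

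Between 20 and 0 ppm at day 91, a pair of groups that shares no library with the comparison above, the called genes went the other way. Of the 151 genes lower at 180 than at 60 ppm, 140 were above 0 at 20 ppm (median 0.54), as were 61.8% of the 7356 genes (median 0.15). With size factors these were 88.1% and 50.4%. All 8 genes that were higher at 180 ppm were below 0 at 20 ppm (median −0.31).

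**Figure D5:**
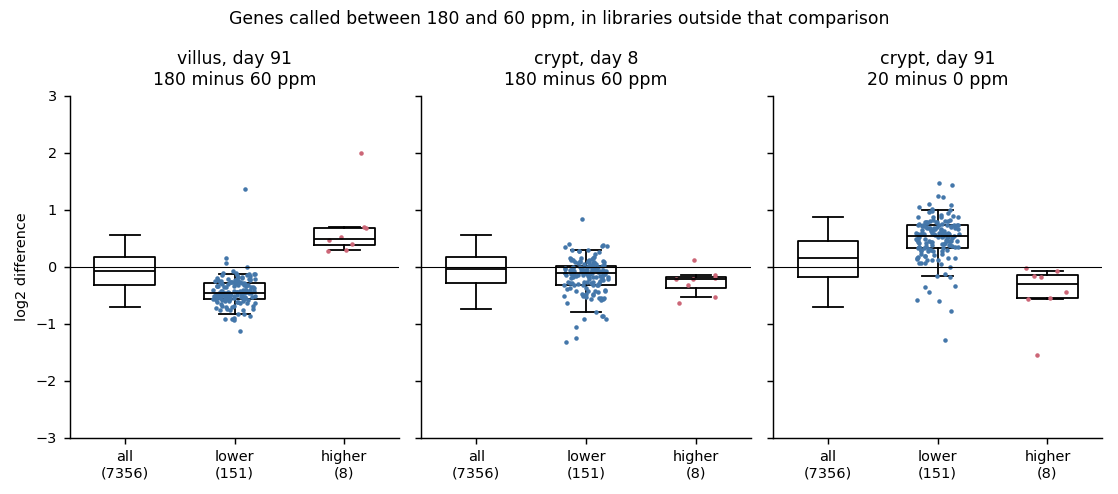
Log2 differences in libraries outside the comparison, for all 7356 genes with a mean of at least 10 CPM, the 151 called lower and the 8 called higher at 180 than at 60 ppm in crypts at day 91. Boxes show quartiles and medians, whiskers the 5th to 95th percentiles, and points single genes. The 151 lie mostly below 0 in the villus (148), less so in crypts at day 8 (110), and mostly above 0 between 20 and 0 ppm (140).

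Where a gene had a further probe, the probes often differed. Of the 159 called genes 80 had another tested probe. Among 80 further probes with at least 10 CPM, 52 (65%) had the sign of the called probe, beside 56.2% over all genes, and 7 were also called with that sign.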

How the data were processed

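Crypt RNA was measured by TempO-Seq in 5 mice per dose at day 91. The authors extracted the reads of each probe from FASTQ files and deposited them as counts, without normalization. bcl2fastq 2.17.1.14 and Bowtie are named in the submitters' processing notes, and the genome build behind the probes is not given in the sources used here. Promoter windows are those of RefSeq on GRCm38.p6, matched by symbol for 53 of the genes the text may name. Groups came from the labels.

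All 137 libraries were fitted in 28 groups with edgeR 4.0.16 in R 4.3.3 (glmQLFit with legacy = FALSE, TMM scaling, filterByExpr), and the contrast was tested by the quasi-likelihood F test, two-sided, with Benjamini-Hochberg adjustment over all probes tested and a threshold of 0.1. Log2 differences are those of the fitted model, with the prior count left at the default of that fit. Total counts of the 10 libraries ran from 4053967 to 7199801, and reads without molecular identifiers limit the precision beyond counting error. Exact permutation tests used SciPy 1.17.1, and figures matplotlib 3.10.9. The members, the lists and most tests were chosen with earlier results of these data known.

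Named genes are up to 14 called genes per direction by smallest adjusted p whose libraries did not overlap and whose higher group had at least 10 CPM, the called genes of each list, the 4 largest differences per direction, up to 5 genes called for a change between days or compartments, genes the study names, and members of a list without a call. Hspa1a, Hsph1 and Hsp90ab1 were added after their values were seen. Lists were written from general knowledge. Some results are not reported here.

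Counts were simulated for this comparison on 22306 probes, with changed probes drawn only from those at 10 CPM or more. All groups otherwise had the same mean, and libraries were independent, also those of the same mouse. The fit recovered 49 of 100 probes changed 2-fold and 88 of 100 changed 4-fold. Over all levels 54.9% of its calls were false, but 13.3% of those at 10 CPM or more. The installed default form (legacy = TRUE) recovered 39 and 82, with 7.63% false. Of the unchanged probes, 10.2% had an unadjusted p under 0.05 in the main form and 4.72% in the default form. The fit of the crypt libraries of day 91, on 19583 simulated probes, recovered 40 and 86, with 31.9% false and 5.97% false at 10 CPM or more. Alternatives were both forms of edgeR, DESeq2 1.42.0 and its size factors, sva 3.50.0, other filters and subsets of libraries, covariates, thinned counts, summed probes, and each library left out. Those chosen after the data were seen are the fits without replicates 3 and 4 at 180 ppm, and the fits of the 35 libraries with size factors, with those replicates left out, with the enterocyte covariate and in the default form. Columns of other series numbered 0.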

Additional observations from a re-analysis of the deposited data

Results flagged for a closer look

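A library far from the other 4 of its group was searched for by its gap to the nearest library over the group's range. The search covered levels of the named genes, total counts, probes detected, TMM factors, and enterocyte, acinar, Paneth cell and granulocyte marker sums. Of 146 groups 10 passed, all of them gene levels. Chance passes about 5% where values are normally distributed, which CPM with zeros need not be. At 180 ppm replicate 3 had 176 CPM of Hspa1b, with the next library at 54.5 CPM, and 23.9 CPM of Hspa1a, with the next at 6.20 CPM. Replicate 2 at 180 ppm had 17.9 CPM of Gm2663, next to 4.13 CPM. At 60 ppm replicate 1 was the highest for Sat1 (355 CPM, next 299.5), Ifit1bl2 (88.2 CPM, next 32.2), Ighv15-2 (42.1 CPM, all others 0) and Fcgbp (4410.0 CPM, next 2735). Replicate 2 at 60 ppm was the lowest for Hnrnpab (357 CPM, next 448) and the highest for Trip4 (161 CPM, next 118), and replicate 3 was the highest for Gm2663 (8.64 CPM, next 2.83).

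The difference between 180 and 60 ppm changed between days for 4 genes, by the contrast of both days in edgeR's quasi-likelihood fit. Gm2663 changed by −6.38 (adjusted p = 0.00498), with means of 3.2 and 5.13 CPM at 60 and 180 ppm at day 91 and of 8.06 and 1098 CPM at day 8. Gm5771 changed by −5.79 (adjusted p = 0.00835), with 6.76 and 5.25 CPM at day 91 and 40.7 and 1837 CPM at day 8. Both are trypsinogen genes, which pancreatic acinar cells express, and the 20 acinar markers had a median difference of 1.95 at day 8, against 0 over all genes, and of −0.01 at day 91. The part of acinar cells in the change was not tested. For both, the lowest library at 180 ppm and day 8 (145 and 195 CPM) was above the highest at 60 ppm (18.2 and 122 CPM). Gkn3, of the gastrokine family, changed by 4.70 (adjusted p = 0.00562), and Fabp6, the bile acid-binding protein of the ileum, by 7.88 (adjusted p = 0.0859). In each, 1 library at 60 ppm and day 8 stood far above the rest, with 434 CPM of Gkn3 in replicate 3 and 6779 CPM of Fabp6 in replicate 2, where the group medians were 4.33 and 2.42 CPM. Without that library neither gene was called. In edgeR's default form Gm2663 was called (adjusted p = 0.0781) and the other 3 were not.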

How the results depend on the processing

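The 179 genes called between 180 and 60 ppm became 47 (2 higher) at an adjusted p under 0.05, 38 (13 higher) with DESeq2 size factors, 43 (1 higher) in edgeR's default form, 39 (6 higher) with no filter beyond 1 count, 51 with thinned counts, 40 with probes of a gene summed, 1 with the enterocyte covariate, and 0 without replicates 3 and 4 at 180 ppm. They became 442 (186 higher) with DESeq2, 1917 (582 higher) with the 35 crypt libraries of day 91, 2071 with a surrogate variable, and 2426 (1171 higher) with the 10 libraries alone. Alternatives chosen after the data were seen, all on the 35 libraries, gave 1868 genes with size factors, 1534 in the default form, 589 without replicate 3 at 180 ppm, and 1 with the enterocyte covariate. Without 1 library the count ran from 1 to 82. The share of higher calls was 34.2% with size factors and 42.1% with DESeq2, and the median difference 0.000205 with size factors.

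At day 8 the 25 genes became 11 in the default form, 48 with DESeq2 and 11 with the day 8 crypt libraries alone, and 12 to 99 without 1 library. In the villus 0 became 19 with DESeq2 and 0 to 1 without 1 library. For the change between days 4 became 2 in the default form, 96 with DESeq2, 167 with the crypt libraries alone, and 1 to 7 without 1 library. For the change between compartments 0 became 13 with DESeq2, and with the mouse as a block, which pairs crypt and villus by the mouse number of the labels, it was 0 (880 probes at an unadjusted p under 0.05). The doses compared were given to different mice and have no pairing.

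Among 37 named called genes, 23 were called with size factors, 17 in the default form, 32 with DESeq2 and 37 with the acinar covariate. Of 29 named genes without a call, 8 were called with the 35 libraries and 9 with a surrogate variable there. The 10 libraries alone called 7 of them and DESeq2 3. With all libraries, none of the 29 was called with size factors or in the default form. Ighv15-2 ran from −8.34 to 0 with 1 library left out, the 0 without replicate 1 at 60 ppm, and with the 35 libraries and the enterocyte covariate Fabp2 and Apoa1 came to 0.0391 and 0.0367. The cause of these changes was not tested. Below 1 CPM, 51.7% of values at 60 ppm and 69.5% at 180 ppm were 0, so depth limits what can be said of 6148 genes at that level, and no gene was called there.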
